A study of Mus musculus with 2 samples.

Results

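The matrix proteases and their inhibitors were followed in RNA sequencing of primary chondrocytes, the cells of cartilage, taken from newborn mice and kept as a monolayer. The labels give rib cartilage as the source, whereas the study's methods name articular cartilage as well. All genes of the deposited table whose symbol names a matrix metalloproteinase (*Mmp*), an ADAMTS protease (*Adamts*), an ADAMTS-like protein (*Adamtsl*) or a tissue inhibitor of metalloproteinases (*Timp*) were taken, which gave 51 of the 22156 genes. They were 23 *Mmp*, 19 *Adamts*, 5 *Adamtsl* and 4 *Timp* genes. Each genotype, control and *Myl3*-KO, had 1 library. In the knockout, a Cre recombinase driven by the *Col2a1* promoter removes floxed *Myl3*, the gene of a myosin light chain. The study's methods describe the controls as *Myl3* flox/flox littermates without Cre, whereas the labels call them WT, and both groups were on the C57BL/6J background and received no treatment. Whether cells of several mice were pooled is not given in the sources used here.

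MMPs are secreted or membrane-bound zinc enzymes that cut collagens, fibronectin and other matrix proteins. ADAMTS enzymes cut proteoglycans such as aggrecan and versican or trim procollagens, and ADAMTS-like proteins resemble them but lack the protease domain. TIMPs bind the active site of MMPs and block it, and TIMP3 also inhibits ADAMTS4 and ADAMTS5. In cartilage, MMP13, ADAMTS4 and ADAMTS5 are the enzymes best known for the loss of type II collagen and aggrecan in osteoarthritis, and the study used MMP13 protein as a catabolic marker and as a factor secreted by senescent cells.

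The control library held 17612435 expected counts and the *Myl3*-KO library 13477977, as estimated by the authors' quantification, and the members took 0.321% and 0.362% of them. *Myl3* had 0 counts in both libraries, so it gives no check of which library is the knockout. Of 9 chondrocyte genes, *Acan*, *Matn1*, *Matn3* and *Hapln1* were at 0 in both libraries, and *Col2a1* had 30 control and 27 *Myl3*-KO counts. *Sox9* had 866 and 480 counts, *Col11a1* 121 and 99, *Comp* 1 and 2 and *Col9a1* 0 and 1. The list summed to 57.8 and 45.2 CPM (counts scaled to a library total of 1000000). The fibroblast genes *Col1a1* and *Col3a1* had 15130 and 32845 control counts and 12887 and 25338 *Myl3*-KO counts, and made up most of the 2731 and 2847 CPM of the 6 fibroblast genes. Of the other 4, *Pdgfra* had 120 and 140 counts, *Dpt* 5 and 2, *Pi16* 1 and 0, and *Thy1* was at 0. Most of the chondrocyte markers therefore go against the label, although *Sox9* and *Col11a1* were counted, and the libraries are called here by their labels only. Of the blood and vessel lists, the 4 neutrophil genes were at 0 in both libraries. The 5 macrophage genes summed to 2.22 CPM in the control against 2.45 CPM in *Myl3*-KO, with *Adgre1* at 0. The 3 endothelial genes summed to 0.397 and 0.742 CPM, the 4 osteoclast genes to 0.738 and 1.04 CPM and the 4 skeletal muscle genes to 0.341 and 0.223 CPM. In both libraries, *Cdh5*, *Ocstamp*, *Myod1* and *Myog* were at 0. The 4 osteoblast genes, mainly *Runx2*, summed to 176 CPM in the control against 189 CPM in *Myl3*-KO.

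The level of the *Mmp* genes differed with their place in the genome. Of the 23 *Mmp* genes, 10 lie side by side on chromosome 9 of GRCm38, between 7272514 and 7699585, a span of 427 kb. This cluster holds *Mmp13*, *Mmp12*, *Mmp1b*, *Mmp3*, *Mmp1a*, *Mmp10*, *Mmp8*, *Mmp27*, *Mmp20* and *Mmp7*. It thus holds all 4 genes grouped here as collagenases (*Mmp1a*, *Mmp1b*, *Mmp8* and *Mmp13*). *Mmp14*, whose product is a collagenase too, was grouped with the membrane-type genes and lies outside the cluster. Together they had 22 control and 20 *Myl3*-KO counts, and 5 of the 10 had none. The 13 *Mmp* genes outside the cluster summed to 8513 and 8122 counts. At least 10 counts over both libraries were reached by 1 of the 10 cluster genes and by 9 of these 13.

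The windows around the transcription start differed as well. RefSeq promoter windows on GRCm38.p6, with 250 bases before and 50 bases after a start, were at hand for 36 of the 51 members, in 39 windows. The members without one are *Adamts4*, *Adamts5*, *Adamts6*, *Adamts7*, *Adamts8*, *Adamts10*, *Adamts15*, *Adamts16*, *Adamts19*, *Adamtsl1*, *Mmp2*, *Mmp9*, *Mmp16*, *Mmp17* and *Mmp19*. The 5 motifs searched were AP-1 (TGAGTCA or, on the other strand, TGACTCA), the TATA box (TATAAA or TTTATA), the GC box (GGGCGG or CCGCCC), an ETS core (CCGGAA or TTCCGG) and an RBPJ core (TGGGAA or TTCCCA). Both strands were read, and no motif's letters lie within those of another. Windows of *Timp1*, *Timp2*, *Timp3* and *Adamts2* are shown because the levels and differences described here turn on these genes. Those of *Mmp3* and *Mmp13* stand for the weakly counted cluster and were chosen after their values were seen. Capitals mark AP-1, TATA box and GC box letters, 5′ to 3′ on the strand of the gene.
*Mmp13*, chr9:7272264-7272563, plus strand: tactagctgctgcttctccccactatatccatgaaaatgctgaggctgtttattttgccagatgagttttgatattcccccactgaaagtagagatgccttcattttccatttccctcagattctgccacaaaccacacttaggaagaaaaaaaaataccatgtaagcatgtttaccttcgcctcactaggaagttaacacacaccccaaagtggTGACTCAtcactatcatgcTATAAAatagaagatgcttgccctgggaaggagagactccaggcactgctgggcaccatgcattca
*Mmp3*, chr9:7445572-7445871, plus strand: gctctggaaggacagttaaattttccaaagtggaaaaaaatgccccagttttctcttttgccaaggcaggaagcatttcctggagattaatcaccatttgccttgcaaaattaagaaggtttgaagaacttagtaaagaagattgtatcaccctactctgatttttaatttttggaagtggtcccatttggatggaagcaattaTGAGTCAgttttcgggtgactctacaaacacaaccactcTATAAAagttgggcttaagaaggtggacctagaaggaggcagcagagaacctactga
*Timp1*, chrX:20869916-20870215, plus strand: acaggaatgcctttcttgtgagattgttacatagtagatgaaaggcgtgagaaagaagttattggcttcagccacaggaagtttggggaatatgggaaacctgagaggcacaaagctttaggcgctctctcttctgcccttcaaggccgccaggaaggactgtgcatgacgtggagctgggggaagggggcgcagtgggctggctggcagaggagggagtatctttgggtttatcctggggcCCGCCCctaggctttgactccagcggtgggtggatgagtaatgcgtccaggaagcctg
*Timp2*, chr11:118355362-118355661, minus strand: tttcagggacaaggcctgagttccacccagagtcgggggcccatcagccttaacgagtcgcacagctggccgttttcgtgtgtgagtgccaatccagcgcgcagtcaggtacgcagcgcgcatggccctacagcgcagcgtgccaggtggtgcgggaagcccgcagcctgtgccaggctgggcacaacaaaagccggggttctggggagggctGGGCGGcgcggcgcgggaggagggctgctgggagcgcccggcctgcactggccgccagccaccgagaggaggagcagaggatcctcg
*Timp3*, chr10:86300162-86300461, plus strand: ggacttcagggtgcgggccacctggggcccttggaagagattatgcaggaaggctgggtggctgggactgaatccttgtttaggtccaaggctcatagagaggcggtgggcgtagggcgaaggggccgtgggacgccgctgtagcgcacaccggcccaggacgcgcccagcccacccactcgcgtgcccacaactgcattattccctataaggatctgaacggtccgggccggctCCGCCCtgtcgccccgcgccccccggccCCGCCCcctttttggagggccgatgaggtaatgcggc
*Adamts2*, chr11:50601835-50602134, plus strand: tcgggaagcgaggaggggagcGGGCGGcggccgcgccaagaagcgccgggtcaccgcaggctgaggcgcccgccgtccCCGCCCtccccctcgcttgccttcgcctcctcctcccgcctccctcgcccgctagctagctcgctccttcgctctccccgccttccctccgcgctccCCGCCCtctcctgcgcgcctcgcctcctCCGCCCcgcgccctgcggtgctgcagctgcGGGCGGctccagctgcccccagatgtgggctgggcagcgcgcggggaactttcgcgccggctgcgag

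In *Mmp13*, the AP-1 letters begin 35 bases and the TATA box letters 16 bases before the start, and in *Mmp3* they begin 46 and 7 bases before it. Of the 10 cluster genes, 7 had AP-1 letters in a window, 9 had TATA box letters and 0 had a GC box, and each of the 7 with AP-1 letters also had TATA box letters. Of the 26 other members with a window, 0 had AP-1 letters, 3 had TATA box letters and 22 had a GC box. Over all 32851 RefSeq windows, the AP-1 letters were found in 5.20%, the TATA box letters in 13.6% and the GC box letters in 35.7%. *Adamts2* held 5 GC boxes, *Timp3* 2, and *Timp1* and *Timp2* 1 each. The ETS core was found in 14.9% of all windows and in 1 member (*Adamts14*), and the RBPJ core in 25.6% of all windows and in 13 members, 3 of them in the cluster. The median number of CpG dinucleotides per window was 1 in the cluster (range 0 to 7) and 22 in the other members (range 2 to 46), against 7 over all windows. These matches describe letters in a window, and they share the base composition of the regions they lie in.

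**Figure D1:**
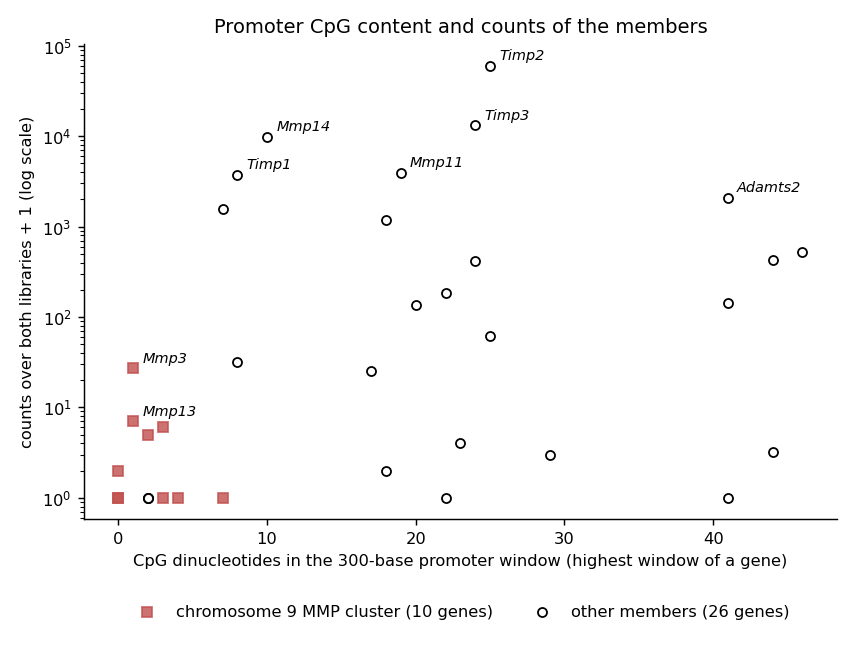
Counts over both libraries plus 1 (log scale) against the number of CpG dinucleotides in the promoter window, for the 36 members with a window. The 10 genes of the chromosome 9 cluster (squares) sit at 7 CpG or fewer, with *Mmp3* highest among them, and the 26 other members (circles) spread from 2 to 46 CpG. A gene with several windows is drawn at its highest CpG number.

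Length-scaled levels showed which members made up the protease and inhibitor RNA. In FPKM, which scales reads by gene length and library and so allows genes to be compared, the TIMP genes summed to 744 in the control against 771 in *Myl3*-KO. The *Mmp* genes summed to 184 and 232 FPKM, the *Adamts* genes to 50.1 and 64.6 FPKM and the *Adamtsl* genes to 6.52 and 6.90 FPKM. The TIMP genes thus made up 75.5% of the members' FPKM in the control and 71.7% in *Myl3*-KO, or 4.04 and 3.32 times the FPKM of the *Mmp* genes. *Timp2* alone held 51.7% and 50.6%. On raw counts, the TIMP share was 74.9% in the control (95% Clopper-Pearson interval 74.5 to 75.2) and 71.8% in *Myl3*-KO (71.4 to 72.2), so the intervals did not overlap. Such intervals cover counting error only, here and below, since each genotype had 1 library and no difference has a replicate check. In bulk RNA, fewer cells of a type and less RNA per cell cannot be told apart.

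**Figure D2:**
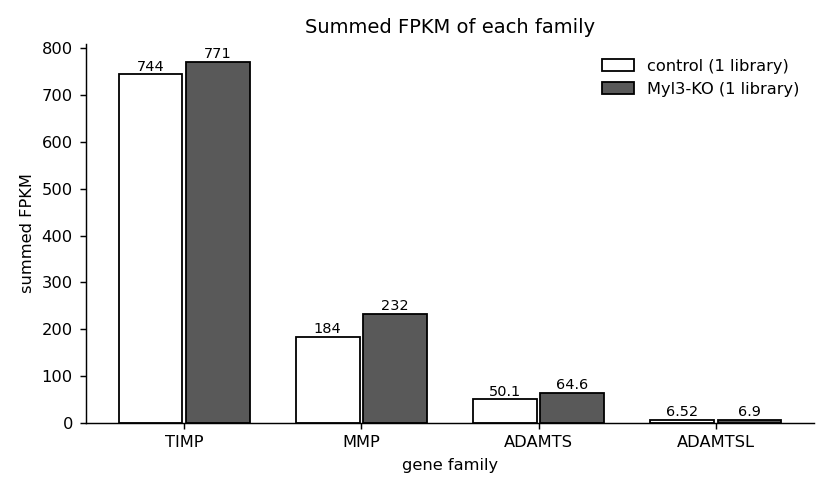
Summed FPKM of the 4 gene families in the control (white) and *Myl3*-KO (grey) library, 1 library each, with the sum above each bar. The *Mmp* bar goes from 184 to 232 and the *Adamts* bar from 50.1 to 64.6, while the TIMP bars stand at 744 and 771.

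Differences are given as log2 ratios of *Myl3*-KO to control CPM, where a count below 3 was set to 3. Genes that reached 10 counts in the sum of both libraries were tested on rounded counts with an exact binomial test (two-sided), with Benjamini-Hochberg adjustment over all 12431 genes tested. The test compares the reads of these libraries and not the genotypes. A gene is called beyond counting error here where the adjusted p was under 0.05, and beyond 2-fold where the log2 ratio reached 1 or -1 with an unadjusted p under 0.05.

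Of the 51 members, 31 were tested, 12 had no count in either library and 8 had fewer than 10 counts. Beyond counting error, 10 of the 31 were higher in *Myl3*-KO, while 18.6% of all genes tested were higher. *Timp1* was the 1 member that was lower, where 16.8% of all genes tested were lower. Of the 19 members with at least 200 counts, 9 were higher and 1 was lower, against 21.4% and 20.7% of all genes with as many counts. The median log2 ratio was 0.14 over the tested members, 0.02 over the 10 tested *Mmp* genes, 0.16 over the 18 tested *Adamts* and *Adamtsl* genes and 0.02 over all genes tested. The *Mmp* median was -0.0118 with TMM factors, -0.00871 with DESeq2 size factors and -0.0476 when centred on genes of like GC content and length, a step that also took the *Adamts* and *Adamtsl* median to 0.0717. Beyond 2-fold, 1 of the 31 members was higher, *Adamtsl2*, and 0 were lower, against 1.46% and 0.531% of all genes tested. With edgeR's exact test and an assumed coefficient of variation of 0.1 between replicates, 0 of the 31 had an adjusted p under 0.05 and 6 an unadjusted one, against 61 and 828 of all 12431 genes.

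**Figure D3:**
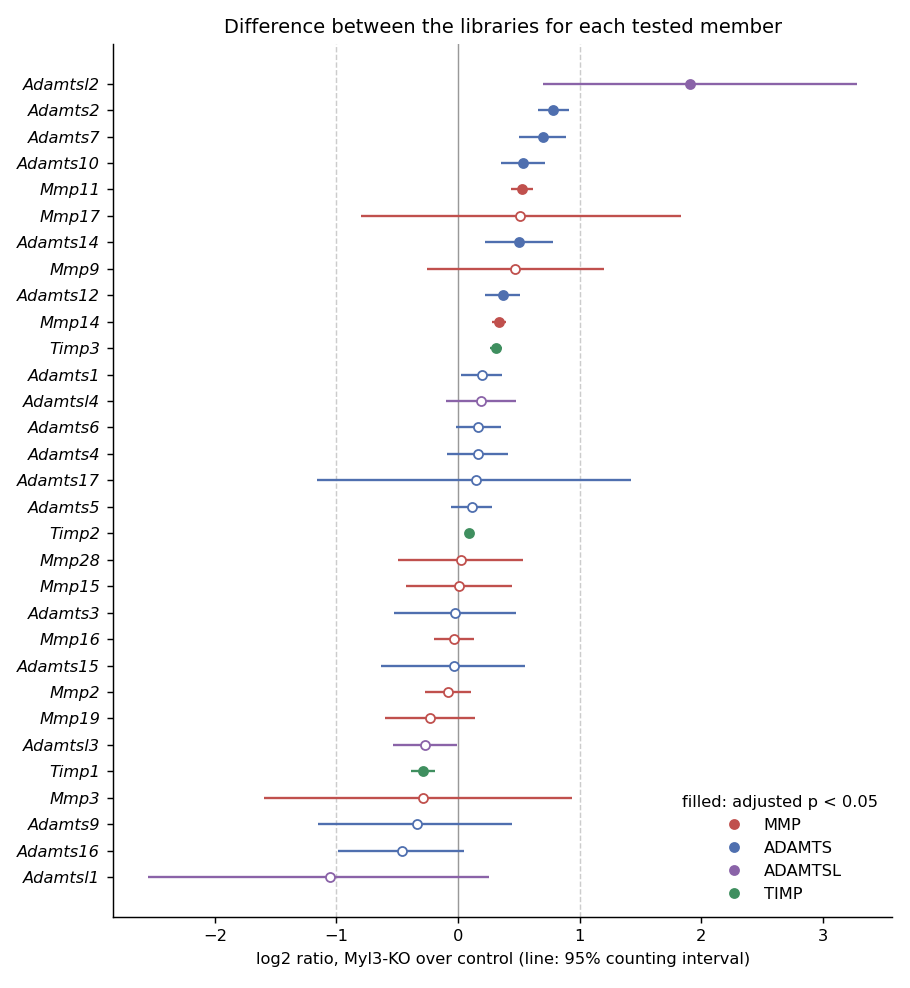
Log2 ratio of *Myl3*-KO over control for the 31 tested members, with 95% counting intervals as lines, dashed lines at a ratio of 2-fold and filled points for an adjusted p under 0.05. *Adamtsl2* lies highest at 1.91, most filled points lie between 0.09 and 0.78, and *Timp1* is the filled point below 0, at -0.29.

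The procollagen N-proteinases and the enzymes that bind cartilage oligomeric matrix protein (COMP) held 4 of the 5 *Adamts* genes that were higher beyond counting error. Among all genes tested, 18.6% were higher in this way. *Adamts2*, which removes the amino-terminal propeptide of fibrillar procollagens, lies on chromosome 11 from 50602084 to 50807573. It had 900 control and 1184 *Myl3*-KO counts (7.03 and 12.09 FPKM), a ratio of 1.72-fold (95% interval 1.58 to 1.88). Its log2 ratio was 0.78 (Benjamini-Hochberg adjusted p = 7.70e-33, exact binomial test), and it was also the *Adamts* gene with the highest mean FPKM. *Adamts14*, an N-proteinase too, had 203 and 220 counts, a log2 ratio of 0.50 (95% interval 0.22 to 0.78). *Adamts3*, the N-proteinase of the same small group that also processes a lymphatic growth factor, had 81 and 61 counts and a log2 ratio of -0.02 (95% interval -0.53 to 0.47). Within this group, the intervals of *Adamts2* and *Adamts3* did not overlap.

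*Adamts7*, which binds and cuts COMP, had 390 control and 483 *Myl3*-KO counts (4.24 and 6.90 FPKM). Its log2 ratio was 0.69 (95% interval 0.50 to 0.89, adjusted exact binomial p = 3.31e-11). *Adamts12*, its closest relative, had 796 and 786 counts, a log2 ratio of 0.37 (95% interval 0.22 to 0.51). Both were thus higher in *Myl3*-KO once the totals were taken into account, while *Comp* itself had 1 control count and 2 *Myl3*-KO counts. *Adamts7* overlaps *Tbc1d2b* on the opposite strand, which had 665 and 574 counts, and whether strand was used in the counting is not given in the sources used here. *Adamts10*, which is linked to fibrillin microfibrils, had 492 and 545 counts (6.91 and 10.00 FPKM). It was higher, by 0.53 on the log2 scale (95% interval 0.36 to 0.71, adjusted exact binomial p = 4.00e-08).

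The aggrecanases did not pass the test. *Adamts4* had 284 control and 243 *Myl3*-KO counts, a log2 ratio of 0.16 (95% interval -0.09 to 0.41, adjusted exact binomial p = 0.346). *Adamts5* had 641 and 531 counts, a log2 ratio of 0.11 (95% interval -0.05 to 0.28, adjusted exact binomial p = 0.322). These intervals leave room for a rise of at most 0.41 and 0.28 on the log2 scale as far as counting error goes. *Adamts1*, which cuts versican and aggrecan, lies next to *Adamts5* on chromosome 16 and had a similar number of reads, 625 and 548 counts. Its log2 ratio was 0.20 (95% interval 0.03 to 0.36), with an unadjusted exact binomial p of 0.0215 and an adjusted one of 0.0590. *Adamts15* had 59 and 44 counts and *Adamts9* 38 and 23, and their intervals both crossed 0. *Adamts8*, the neighbour of *Adamts15* on chromosome 9, and *Adamts20* had 0 counts in both libraries. So 5 of the 7 proteoglycan-cleaving genes were tested and 0 were called, where 18.6% of all genes tested were higher and 16.8% lower. With 5 genes, this count is a description. Of the 5, only *Adamts1* had an unadjusted exact binomial p under 0.05. By FPKM (8.30 in the control and 8.59 in *Myl3*-KO), the log2 ratio of *Adamts1* was only 0.05.

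The remaining *Adamts* genes, which have other or unsettled substrates, gave no call. *Adamts6* had 517 and 444 counts (log2 ratio 0.17, 95% interval -0.02 to 0.35). *Adamts16* had 90 and 50 counts, the lowest log2 ratio of the *Adamts* genes at -0.46 (95% interval -0.99 to 0.05). *Adamts17* had 13 and 11 counts, and its interval of -1.16 to 1.42 left it undecided. *Adamts13*, the protease of von Willebrand factor, *Adamts18* and *Adamts19* had 0 counts in both libraries.

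Of the 4 tested ADAMTS-like genes, 1 was higher beyond counting error and 0 were lower, against 18.6% and 16.8% of all genes tested. With 4 genes, these counts are a description. *Adamtsl2* encodes a glycoprotein of the fibrillin network that is tied to TGF-β availability, and it lies on chromosome 2 from 27079379 to 27108981. It had 8 control and 23 *Myl3*-KO counts (0.13 and 0.47 FPKM), a ratio of 3.76-fold. The log2 ratio was 1.91 (95% interval 0.70 to 3.28, adjusted exact binomial p = 0.00361), so the size is poorly known at this depth. *Adamtsl1* had 19 control and 7 *Myl3*-KO counts, a log2 ratio of -1.05 (95% interval -2.55 to 0.26, adjusted exact binomial p = 0.222). Its ratio is past 2-fold in size, but it did not pass the test and is not counted as changed. *Adamtsl3* had 317 and 201 counts (log2 ratio -0.27, 95% interval -0.53 to -0.01, unadjusted exact binomial p = 0.0372 and adjusted p = 0.0923). *Adamtsl4*, the *Adamtsl* gene with the highest mean FPKM at 3.20 and 3.68, had 221 and 193 counts (log2 ratio 0.19, 95% interval -0.10 to 0.48). *Adamtsl5* had 2 and 0 counts.

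Among the *Mmp* genes, the 2 with the highest FPKM, *Mmp14* and *Mmp11*, were those higher beyond counting error. The test passes smaller ratios where counts are high, so this link with abundance lies partly in the test. *Mmp17* and *Mmp9* had log2 ratios of 0.51 and 0.47 at far fewer counts and did not pass. *Mmp14* encodes MT1-MMP, a membrane-bound collagenase that also activates the gelatinase MMP2, and lies on chromosome 14 from 54431612 to 54445364. It had 4997 control and 4834 *Myl3*-KO counts (109 and 138 FPKM), a log2 ratio of 0.34 (95% interval 0.28 to 0.40, adjusted exact binomial p = 3.82e-29). *Mmp11*, stromelysin-3, which is already active when secreted, had 1874 and 2069 counts (48.1 and 69.0 FPKM). Its log2 ratio was 0.53 (95% interval 0.44 to 0.62, adjusted exact binomial p = 1.27e-28), and it lies on chromosome 10 from 75923222 to 75936496. *Mmp14* held 59.1% of the *Mmp* FPKM in the control against 59.2% in *Myl3*-KO, while *Mmp11* held 26.1% and 29.7%.

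*Mmp2*, the gelatinase that MMP14 activates with the help of TIMP2, had 565 and 408 counts (11.1 and 9.83 FPKM). Its log2 ratio was -0.08 (95% interval -0.27 to 0.10), an interval that did not overlap that of *Mmp14*. The FPKM of *Mmp14* was 9.78 times that of *Mmp2* in the control and 14.0 times in *Myl3*-KO. The FPKM of *Timp2* was 4.68 times that of *Mmp14* in the control and 3.95 times in *Myl3*-KO. *Mmp9*, the other gelatinase, had 33 and 35 counts (log2 ratio 0.47, 95% interval -0.26 to 1.20).

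The other membrane-type genes showed no difference beyond counting error. *Mmp16* had 696 and 520 counts (log2 ratio -0.03, 95% interval -0.20 to 0.13). *Mmp15* had 104 and 80 counts (log2 ratio 0.01, 95% interval -0.43 to 0.44). *Mmp17* had 11 and 12 counts (log2 ratio 0.51, 95% interval -0.80 to 1.83). For *Mmp16* the interval is narrow, whereas *Mmp17* was too weakly counted to be placed. *Mmp24* had 1.1 and 1.12 counts and *Mmp25* 0 and 1.

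Of the *Mmp* genes outside these groups and the chromosome 9 cluster, *Mmp19* had 155.7 control and 101.59 *Myl3*-KO counts. *Mmp28*, the epilysin gene, had 75.59 and 58.77. Their log2 ratios were -0.23 (95% interval -0.60 to 0.14) and 0.02 (-0.50 to 0.53). *Mmp19* overlaps *Tmem198b* on the opposite strand, with 339.3 and 408.41 counts there, and its counts are not whole. *Mmp23* had 1 and 2 counts, and *Mmp21* had none.

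The genes of the chromosome 9 cluster gave little to compare. *Mmp3*, stromelysin-1, had 16 control and 10 *Myl3*-KO counts, a log2 ratio of -0.29 (95% interval -1.59 to 0.94, adjusted exact binomial p = 0.818). Of the 31-base words in its transcripts, 11.4% also occur in *Mmp10*, which had 2 counts in each library. No other tested member shared 1% or more of its words with another gene of the table. *Mmp13* had 2 control and 4 *Myl3*-KO counts (0.04 and 0.11 FPKM). It was not tested, and the 95% counting interval of its log2 ratio ran from -1.42 to 4.85, or from 0.37-fold to 28.9-fold. The direction thus cannot be told at this depth, and the interval has room for a far larger rise than fall. *Mmp12* had 2 and 3 counts and *Mmp1a*, which GENCODE lists as a polymorphic pseudogene, 0 and 1. *Mmp7*, *Mmp8*, *Mmp20*, *Mmp27* and *Mmp1b* had 0 in both, which allows up to 0.170 CPM in the control against 0.223 CPM in *Myl3*-KO for each gene, the level of 3 counts.

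The TIMP genes, which each sit inside or around another gene, went in opposite directions. *Timp3*, whose product binds to the matrix and inhibits ADAMTS4 and ADAMTS5, lies on chromosome 10 from 86300372 to 86349506. It had 6819 control and 6481 *Myl3*-KO counts (82.0 and 102 FPKM), a log2 ratio of 0.31 (95% interval 0.26 to 0.36, adjusted exact binomial p = 1.35e-33). *Timp1*, the secreted inhibitor that is induced by many growth factors, lies on the X chromosome from 20870166 to 20874735. It had 2310 and 1447 counts (152 and 125 FPKM), a log2 ratio of -0.29 (95% interval -0.38 to -0.19, adjusted exact binomial p = 2.87e-08). The ratio of *Timp1* to *Timp3* FPKM was 1.86 in the control against 1.22 in *Myl3*-KO, and the intervals of the log2 ratios of these genes lay apart.

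*Timp2*, on chromosome 11 from 118301069 to 118355740, was the most abundant member, with 33255 and 27072 counts (510 and 544 FPKM). It ranked 130 among all genes by FPKM in the control and 115 in *Myl3*-KO. Its log2 ratio of 0.09 (95% interval 0.07 to 0.11) was small but passed the exact binomial test (adjusted p = 1.17e-12), and it turned to -0.01 when log2 ratios were centred on genes of like GC content and transcript length. *Timp4* had 0 counts in both libraries. *Timp1* and *Timp3* lie within *Syn1* and *Syn3*, synapsin genes read from the opposite strand, which had 33 and 25 counts and 2 and 0 counts. *Timp4* lies within *Syn2*, with 2 counts in each library, and *Timp2* contains *Cep295nl*, with 60 and 37. These partners held few reads beside *Timp1*, *Timp2* and *Timp3*.

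**Figure D4:**
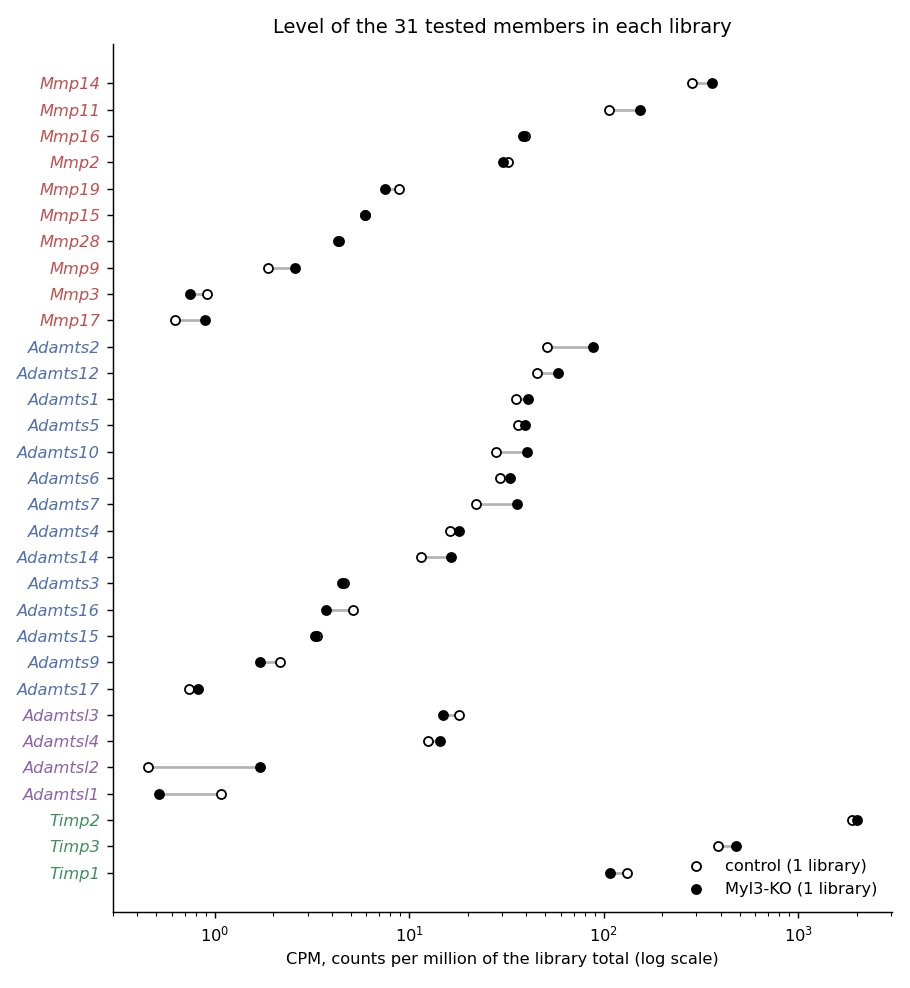
CPM (log scale) of the 31 tested members in the control (open circles) and *Myl3*-KO (filled circles) library, by family and level. *Timp2* lies farthest right, followed by *Timp3* and *Mmp14*, and the gaps between circles are small beside the range between genes.

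Base composition moved with the ratios. Across the 31 tested members, the log2 ratio had a Spearman rho of 0.40 with the GC content of the longest GENCODE transcript, 0.08 with its length and 0.27 with the counts over both libraries. All points share the same libraries, so these are descriptions. After the median of the tested genes in the same bin of GC content and length was taken off, a step chosen after seeing the data, *Adamtsl2* was at 1.71 and *Adamts2* at 0.58. *Adamts7* was then at 0.50, *Mmp11* at 0.45, *Adamts10* at 0.34, *Timp3* at 0.33, *Mmp14* at 0.24 and *Timp1* at -0.24. These 8 genes kept their direction, with smaller log2 ratios for all but *Timp3*.

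Of 52 genes around the matrix proteases, listed by role, 35 were tested. *Vcan*, *Dcn*, *Lum*, *Pcsk5*, *Pcsk6*, *Pcsk7*, *Adam9*, *Adam10*, *Adam17* and *Adam19* are named after their values were seen. Beyond counting error, 11 were higher and 5 lower of the 35, against 18.6% higher and 16.8% lower of all genes tested. The lists below are read against the same shares, and with so few genes each their counts are a description. Among 9 tested substrate genes, 5 were higher and 2 lower, with a median log2 ratio of 0.22. The fibronectin gene *Fn1* (53988 control and 60449 *Myl3*-KO counts) had a log2 ratio of 0.55 (95% interval 0.53 to 0.57). The collagen gene *Col1a2* had 211652 and 189213 counts (log2 ratio 0.22) and *Bgn*, the biglycan gene, 46450 and 43830 (0.30). The versican gene *Vcan* had 632 and 672 counts (log2 ratio 0.47, 95% interval 0.32 to 0.63). *Dcn* and *Lum*, which encode the small proteoglycans decorin and lumican, were the genes of these lists that were lower beyond 2-fold. *Dcn* had 631 and 155 counts (log2 ratio -1.64, 95% interval -1.90 to -1.38) and *Lum* 272 and 81 (-1.36, 95% interval -1.74 to -0.999).

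Of 7 tested genes for activation and clearance, 2 were higher and 1 lower, with a median log2 ratio of 0.05. *Lrp1*, the endocytic receptor that takes up several MMPs, ADAMTS enzymes and TIMPs, had 4484 and 5170 counts (log2 ratio 0.59, 95% interval 0.53 to 0.65). *Furin*, whose product cuts the propeptide of MMP14 and MMP11, had 1404 and 1344 counts (log2 ratio 0.32, 95% interval 0.21 to 0.43). *Bsg*, which encodes basigin, an inducer of MMPs, was lower, with 16304 and 9550 counts (log2 ratio -0.39, 95% interval -0.42 to -0.35). *Furin* was thus higher, as were *Mmp14* and *Mmp11*, but the other convertase genes of the list were not called. *Pcsk7* did not pass the test at 644.5 and 541.3 counts (log2 ratio 0.13). *Pcsk6* had 106 and 67 counts (log2 ratio -0.28, 95% interval -0.74 to 0.18), and *Pcsk5* had 0 in both libraries. A link between *Furin* and these *Mmp* genes was not tested.

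Among 15 other protease genes tested, 4 were higher (*Bmp1*, *Prss23*, *Adam12* and *Adam19*) and 1 lower (*Adam9*, log2 ratio -0.12), with a median log2 ratio of 0.06. *Bmp1*, the procollagen C-proteinase, which works at the opposite end of procollagen from *Adamts2*, had 1091 and 1220 counts (log2 ratio 0.55, 95% interval 0.43 to 0.67). Its enhancer gene *Pcolce* had 16642 and 12994 counts and a log2 ratio of 0.03 (95% interval -0.0042 to 0.062). *Prss23* (log2 ratio 0.45, 95% interval 0.21 to 0.68) and *Adam12* (30 and 47 counts, 1.03, 95% interval 0.34 to 1.75) were higher as well. *Adam10* and *Adam17*, membrane sheddases, had log2 ratios of -0.04 and -0.06 with intervals across 0. Of 4 further inhibitor genes tested, the cystatin gene *Cst3* was lower (2258 and 1537 counts, log2 ratio -0.17) and *Reck*, a membrane inhibitor of MMPs, had 125 and 119 counts (0.32, 95% interval -0.06 to 0.69). This list of 4 also holds the enhancer gene *Pcolce*, so it is not made up of inhibitors alone. Its median was 0.17, and over all genes tested it was 0.02.

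**Figure D5:**
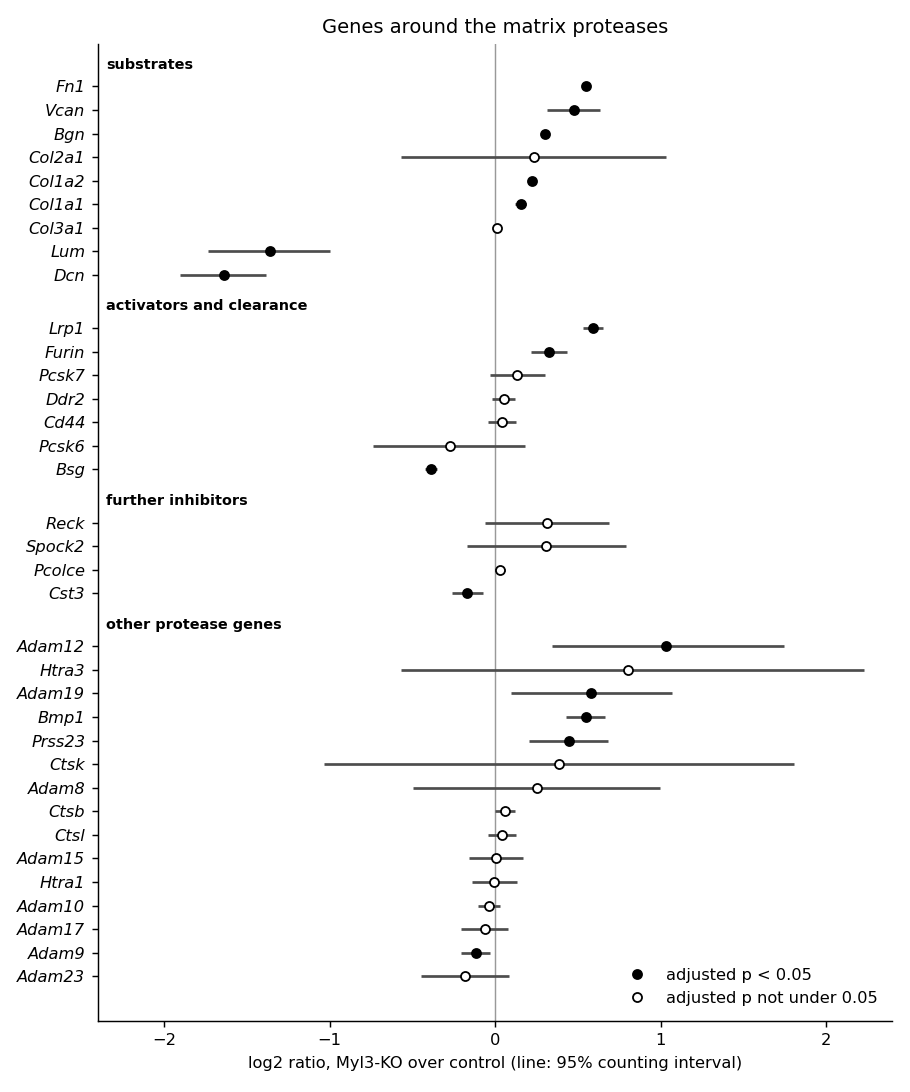
Log2 ratio of *Myl3*-KO over control with 95% counting intervals for the 35 tested genes around the matrix proteases, grouped by role, with filled points for an adjusted p under 0.05. Among the substrates, *Dcn* and *Lum* lie below -1 and *Fn1* at 0.55, and *Bsg* is the filled point below 0 among the genes for activation and clearance.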

How the data were processed

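Poly(A) RNA of 1 control and 1 *Myl3*-KO library was sequenced. The authors deposited 1 table of expected counts per gene and of FPKM, which they had scaled by gene length and library and rounded to 2 decimals. The submitters' processing notes name the builds GRCm38 and mm10, whereas aligner, counting tool and strand setting are not given in the sources used here. Totals were 17612435 and 13477977, and 3 members had counts that were not whole. Expected counts were rounded for the exact binomial test (scipy 1.17.1, Python 3.11.15). Its code was run on simulated libraries that held counting error and large planted changes only. That run therefore says nothing about variation between replicates or about small ratios. Genes with fewer than 10 counts over both libraries were not tested. Genes, overlaps and 31-base words were taken from GENCODE M21. Alternatives were TMM factors and preset coefficients of variation in edgeR 4.0.16, size factors of DESeq2 1.42.0 (R 4.3.3), FPKM ratios, other count and ratio limits and 1 added count. Centring within 5 bins of GC content by 5 of length and the restriction to genes with at least 200 counts were added after seeing the data. All members are named, and genes of the wider lists are named where they were among the 3 with the lowest p of a list, or as stated. The members and lists were chosen with earlier results of these data known. The column headed NC was taken as the control library.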

Additional observations from a re-analysis of the deposited data

How the results depend on the processing

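TMM factors and DESeq2 size factors each kept the 11 members beyond counting error, 10 higher and 1 lower. Of all 12431 genes tested, 35.5% and 35.4% were beyond it, so the total of 11 out of 31 is close to that share. Over all genes, 1940 were higher and 2473 lower with TMM factors, and 1971 and 2426 with DESeq2 size factors. When edgeR's exact test assumed a coefficient of variation of 0.1, 0.2 or 0.4, 0 members were higher and 0 lower at an adjusted p under 0.05, while 6, 1 and 0 had an unadjusted p under 0.05, and over all genes 61, 4 and 1 were called (828, 175 and 25 unadjusted). Of the genes of the wider lists, 10 were higher and 5 lower with TMM and with DESeq2 factors, in place of 11 and 5. At 0.2, 0 of the 35 tested genes of the wider lists were called in either direction. The number of members beyond 2-fold went from 1 to 0 where each library had to hold at least 10 counts, to 0 with a log2 ratio of at least 2, and to 3 with a ratio of at least 1.5-fold. The median log2 ratio of the *Mmp* genes, 0.02, turned to -0.0118 with TMM and -0.00871 with DESeq2 factors and to -0.0476 when centred within bins of GC content and length. That of the *Adamts* and *Adamtsl* genes went from 0.16 to 0.0717 when centred. The TIMP share was 74.9% of counts in the control, and without *Timp2* it was 49.3% of FPKM in the control and 42.7% in *Myl3*-KO. Centring turned the log2 ratios of *Adamtsl4* to -0.00768, of *Timp2* to -0.00726, of *Mmp16* to 0.0420, of *Mmp28* to -0.14, of *Mmp15* to -0.19 and of *Adamts17* to -0.0580. *Mmp28* was at -0.00414 with TMM and -0.00101 with DESeq2 factors, and *Mmp15* at -0.0195 and -0.0164. By FPKM, *Adamts9* was at 0.0525 and *Adamts17* at -0.44. The cause of these shifts was not tested. Adding 1 count to each library turned none of the 31 log2 ratios. No paired analysis was possible because each genotype had 1 library, and no library could be left out. Depth limits the 20 members with fewer than 10 counts, *Mmp13* among them.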
